A study of Rattus norvegicus with 8 samples.

Results

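The genes described here are 34 rat genes of protein folding in the endoplasmic reticulum (ER) and of the unfolded protein response. They were chosen by symbol and sorted by role into 11 chaperones and co-chaperones, 6 disulfide isomerases and oxidases, 8 genes of ER-associated degradation, 4 translocon genes and 5 sensors and regulators. Where a gene had several probe sets, the brightest by mean signal over the 8 arrays stood for it. Of the 34, 32 had a probe set with 1 symbol, out of 14218 genes so named on the array, and these 32 all passed the filter on dim probe sets. Expression of Derl3 and Ern1 was not analysed here.

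Expression was measured in SB5, a sub-clone of the rat thyroid follicular line FRTL-5, on single-colour Affymetrix arrays. The medium held bovine TSH at 5 mU/ml in every group, and every group stably expressed a human TSH receptor. The 4 groups, of 2 arrays each, were cells with the L629F receptor given 1 mM sodium iodide, L629F cells given 1 mM sodium chloride, wild type receptor (WT) cells given 1 mM sodium iodide, and WT cells given 1 mM sodium chloride, the isotonic control. L629F is an activating mutation of the receptor, and the series asked how iodide alters expression in a model of thyroid autonomy. The labels name 1 line per receptor, so receptor and line cannot be told apart, and no treatment time is given. Nothing states that arrays of a group came from separate cultures, and the p-values then rest on a spread between arrays that may be technical. The 9 thyroid markers measured had mean signals from 475 (the lowest of the 9) to 13792 for Tg. Markers of leucocytes, fibroblasts, endothelium and C cells reached mean signals of at most 156, 137, 154 and 131. The signals come from bulk RNA, in which fewer cells of a type and less RNA per cell cannot be told apart.

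Proteins that enter the secretory pathway pass the translocon into the ER, where BiP (encoded by Hspa5) and its J-domain partners, the lectins calnexin and calreticulin, and disulfide isomerases fold them. Proteins that fail to fold are returned to the cytosol and degraded, a route called ER-associated degradation. When unfolded proteins accumulate, the sensors Ire1 (encoded by Ern1), Perk (Eif2ak3) and Atf6 start the unfolded protein response, and Atf6 and the spliced form of Xbp1 switch on chaperone genes through short promoter elements. Thyroid follicular cells depend on this machinery to fold thyroglobulin, a large glycoprotein with many disulfide bonds that is their main secretory product.

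Because Atf6 and Xbp1 act through known elements, the promoter windows were searched for them, each window running from 250 bases before to 50 bases after the annotated start of a gene in RefSeq's GRCr8 table. A window was listed for 26 of the 34 genes. The ER stress element (ERSE) was sought as CCAAT and CCACG separated by 9 bases, ERSE-II as ATTGG and CCACG separated by 1 base, and the unfolded protein response element (UPRE) as TGACGTGG, each on both strands and without mismatch. The sequences shown are those of Pdia4, Dnajb9 and Calr, which had the smallest p-values for iodide among the 32 genes, of Herpud1, which had the smallest p-value for the receptor, and of Hspa5, Hsp90b1 and Xbp1, whose windows hold an ERSE. Each is written in the direction of its gene, and capitals mark the outer letters of a matched motif. The windows lie at chr4:78153142-78153441 (minus strand) for Pdia4, chr6:67002002-67002301 (minus strand) for Dnajb9, chr19:40213117-40213416 (plus strand) for Calr, chr3:38452766-38453065 (plus strand) for Hspa5, chr7:23012244-23012543 (minus strand) for Hsp90b1, chr19:10614658-10614957 (minus strand) for Herpud1 and chr14:84604373-84604672 (plus strand) for Xbp1.
Pdia4: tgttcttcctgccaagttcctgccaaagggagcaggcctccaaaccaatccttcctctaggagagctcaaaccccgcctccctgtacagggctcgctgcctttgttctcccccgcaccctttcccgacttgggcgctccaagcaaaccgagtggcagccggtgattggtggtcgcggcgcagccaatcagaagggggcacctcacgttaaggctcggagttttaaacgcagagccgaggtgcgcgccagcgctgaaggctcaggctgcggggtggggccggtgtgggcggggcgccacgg
Dnajb9: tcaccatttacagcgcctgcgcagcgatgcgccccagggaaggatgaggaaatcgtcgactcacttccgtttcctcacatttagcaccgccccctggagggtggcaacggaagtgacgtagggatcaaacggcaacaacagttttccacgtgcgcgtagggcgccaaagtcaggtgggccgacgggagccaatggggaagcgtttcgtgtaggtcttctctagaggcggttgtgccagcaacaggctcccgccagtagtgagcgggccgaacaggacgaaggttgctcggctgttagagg
Calr: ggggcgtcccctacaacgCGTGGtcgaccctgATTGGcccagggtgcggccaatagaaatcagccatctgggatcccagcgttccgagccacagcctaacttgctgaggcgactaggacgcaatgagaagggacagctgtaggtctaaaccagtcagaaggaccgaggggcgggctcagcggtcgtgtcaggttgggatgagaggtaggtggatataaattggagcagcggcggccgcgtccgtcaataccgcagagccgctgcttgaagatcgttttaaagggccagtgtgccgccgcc
Hspa5: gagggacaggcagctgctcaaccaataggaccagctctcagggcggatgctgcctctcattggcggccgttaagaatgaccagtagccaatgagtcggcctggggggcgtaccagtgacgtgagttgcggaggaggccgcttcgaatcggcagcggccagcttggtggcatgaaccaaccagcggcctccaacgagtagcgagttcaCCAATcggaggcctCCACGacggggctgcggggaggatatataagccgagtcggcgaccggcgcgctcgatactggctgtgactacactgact
Hsp90b1: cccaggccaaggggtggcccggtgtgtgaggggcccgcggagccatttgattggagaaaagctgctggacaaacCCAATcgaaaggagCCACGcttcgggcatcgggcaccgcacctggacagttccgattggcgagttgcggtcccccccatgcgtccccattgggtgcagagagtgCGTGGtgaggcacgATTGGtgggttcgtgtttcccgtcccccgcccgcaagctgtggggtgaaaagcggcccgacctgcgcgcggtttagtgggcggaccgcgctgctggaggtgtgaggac
Herpud1: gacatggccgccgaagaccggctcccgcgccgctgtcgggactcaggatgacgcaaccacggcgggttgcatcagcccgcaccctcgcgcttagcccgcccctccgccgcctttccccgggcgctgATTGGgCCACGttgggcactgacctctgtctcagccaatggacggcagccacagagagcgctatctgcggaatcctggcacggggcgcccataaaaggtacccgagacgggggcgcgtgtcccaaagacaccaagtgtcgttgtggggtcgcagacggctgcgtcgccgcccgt
Xbp1: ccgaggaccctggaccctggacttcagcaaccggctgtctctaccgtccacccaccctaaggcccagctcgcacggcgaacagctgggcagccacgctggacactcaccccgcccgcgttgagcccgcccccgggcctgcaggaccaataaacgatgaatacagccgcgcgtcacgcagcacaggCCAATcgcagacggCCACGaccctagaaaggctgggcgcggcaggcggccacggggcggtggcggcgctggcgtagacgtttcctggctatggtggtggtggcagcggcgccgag

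An ERSE was found in the windows of 8 of the 26 genes (30.8%), against 22 of all 33469 windows in the table (0.0657%). Among windows of genes on the array it was 18 of 13243 (0.136%). The share over all windows counts windows rather than genes and includes those of the 26 genes. The 8 were Hspa5, Hsp90b1, Calr, Canx, Creld2, Dnajc3, Xbp1 and Derl3, and Hsp90b1 held 2 copies, at -176 to -158 and at -72 to -54 from its start. ERSE-II was found for Herpud1 (at -124 to -114), Dnajb11 and Hyou1, 3 of 26 genes (11.5%) against 17 of all windows (0.0508%) and 0.0831% of those of array genes. The UPRE letters were found for Vcp and Hyou1, 2 of 26 (7.69%) against 199 of all windows (0.595%) and 0.823% of those of array genes. In Hyou1, which has 2 listed starts, the UPRE match overlapped an ERSE-II. The windows of Pdia4 and Dnajb9 held none of the 3 motifs in these exact letters. These matches are descriptions of sequence, and the motifs were first defined on genes of this kind.

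**Figure D1:**
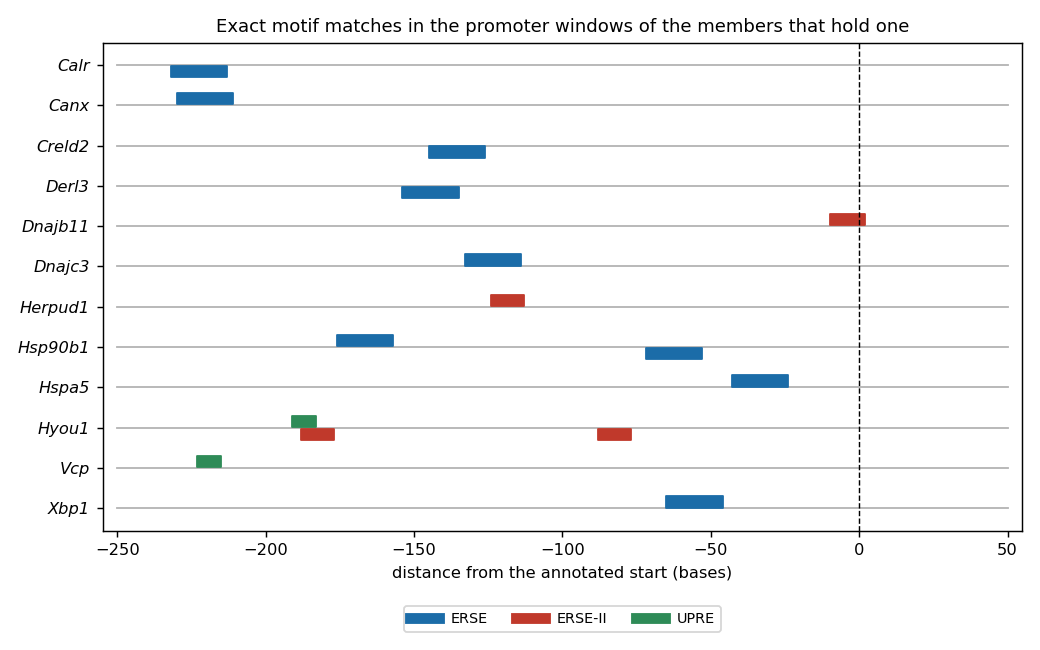
Positions of exact motif matches in the promoter windows of the 12 genes that held one. The x axis is the distance from the annotated start in bases, bars above a line lie on the strand of the gene and bars below it on the opposite strand, and colours give the motif. Hsp90b1 and Hyou1 held more than 1 match.

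With iodide, averaged over both lines, 1 of the 32 genes passed the test. It was Pdia4, a disulfide isomerase of the ER with several thioredoxin-type domains, and it fell. Its signal was 1739 and 2240.45 in L629F cells given iodide, against 3080.02 and 3122 in L629F cells given chloride. In WT cells it was 1299.8 and 1911 with iodide, against 3382 and 2816 with chloride. Every iodide array lay below every chloride array, and the lowest value was that of WT iodide replicate 1. The mean log2 change was -0.80 ± 0.13 (SE; 95% interval -1.09 to -0.51), a ratio of 0.575, with an adjusted p of 0.00909 (limma, n = 2 arrays per group). Over all genes tested, 161 of 10047 passed in this comparison (1.6%), and 109 of them were lower.

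The fall of Pdia4 passed within WT cells (-0.95 ± 0.19, adjusted p = 0.0448). In L629F cells the change was -0.64 ± 0.19 (adjusted p = 0.332), and the difference between the lines was 0.31 ± 0.27 (adjusted p = 0.993). Leaving out 1 array at a time, the average over both lines passed in 6 of 8 fits. It did not pass without WT chloride replicate 1 (adjusted p = 0.0897) or without L629F iodide replicate 1 (adjusted p = 0.053), and the change ran from -0.93 to -0.66 over the 8 fits. Over all 18 alternative settings its adjusted p ran from 0.000646 to 0.113. The call within WT cells was lost in 5 of the 8 (adjusted p up to 0.436), which were those without either WT chloride array, WT iodide replicate 1 or either L629F chloride array. The ratio of the 3′ to the 5′ GAPDH probe set, a measure of RNA integrity that degradation raises, was 2.32 ± 0.716 on iodide arrays and 1.62 ± 0.397 on chloride arrays (SD, n = 4 each). By line it ran from 1.54 to 2.49 on L629F arrays and from 1.22 to 3.13 on WT arrays. The same ratio for beta-actin was higher, from 5.93 to 7.90 on L629F arrays and from 2.23 to 9.15 on WT arrays. In each of the 4 groups replicate 2 had the higher value of both ratios. With the log2 of the GAPDH ratio as a covariate the change of Pdia4 was -0.97 (adjusted p = 0.00215).

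The other 5 isomerase and oxidase genes did not pass, and the median of all 6 was -0.16. Pdia3, which works with calnexin and calreticulin on glycoproteins, had signals of 6697 and 8173 in L629F cells given iodide, against 7940.03 and 7998 with chloride. In WT cells they were 5216 and 5690.23 with iodide, against 7044 and 7065 with chloride. The groups thus overlapped in L629F cells and did not in WT cells, where the log2 change was -0.37 ± 0.13 (adjusted p = 0.243). A dimmer probe set of Pdia3, with a mean signal of 160, gave 0.03 in WT cells and -0.33 in L629F cells, with overlap in both. With quantile scaling the average of the brightest probe set over both lines was -0.33 (adjusted p = 0.0481, and up to 0.527 over 18 alternative settings). P4hb, the founding protein disulfide isomerase, had an average change of -0.07 ± 0.10, and Pdia6 one of -0.03 ± 0.10. The values for Ero1a, the oxidase that renews the disulfides of the isomerases, and for Txndc5 were -0.24 ± 0.16 and 0.07 ± 0.12. The 95% interval of P4hb ran from -0.30 to 0.15 and that of Pdia6 from -0.24 to 0.19, so a change as large as that of Pdia4 lay outside both.

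Of the 11 chaperone and co-chaperone genes, none passed for the average over both lines, against 1.6% of all genes (limma). At an unadjusted p under 0.05 there were 3 of the 11, against 15.2% of all genes. Of the 11, 8 had a negative and 3 a positive mean change, where 4807 of 10047 genes tested had a negative one. The median was -0.09, against 0.01 over all genes tested. Calr, which encodes calreticulin, had signals of 4476 and 4436 in L629F cells given iodide, against 5502 and 5334 with chloride. With the WT receptor they were 4231 and 4309.7 with iodide, against 6590.1 and 5393 with chloride. All 4 iodide arrays lay below all 4 chloride arrays, and WT chloride replicate 1 stood highest. The log2 change was -0.38 ± 0.09 (limma, adjusted p = 0.058), short of the threshold of 0.05 and within the looser alternative of 0.1. Of the alternatives without a replicate term, Calr passed with quantile scaling (adjusted p = 0.0307) and with a stricter filter that removed 60% of probe sets (adjusted p = 0.0492), and over 18 alternative settings its adjusted p ran to 0.278.

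Dnajb9, a J-domain partner of BiP, had signals of 1747 and 1698 in L629F cells given iodide, against 2220.3 and 2385 with chloride. The WT cells had 1679.96 and 1334 with iodide, against 1916 and 1996 with chloride. The groups did not overlap in either line, and the average change was -0.39 ± 0.11 (limma, adjusted p = 0.0874), again within the looser threshold of 0.1 only. Without WT iodide replicate 1 Dnajb9 passed (-0.48, adjusted p = 0.0366), and over 18 alternative settings its adjusted p ran to 0.258. Sdf2l1, a partner of the co-chaperone Dnajb11, had signals of 1892 and 2079 in L629F cells given iodide, against 2109 and 2882 with chloride. For WT cells the values were 1938 and 1952 with iodide, against 2417 and 2629 with chloride. Again there was no overlap within a line, with an average change of -0.34 ± 0.11 (adjusted p = 0.166).

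**Figure D2:**
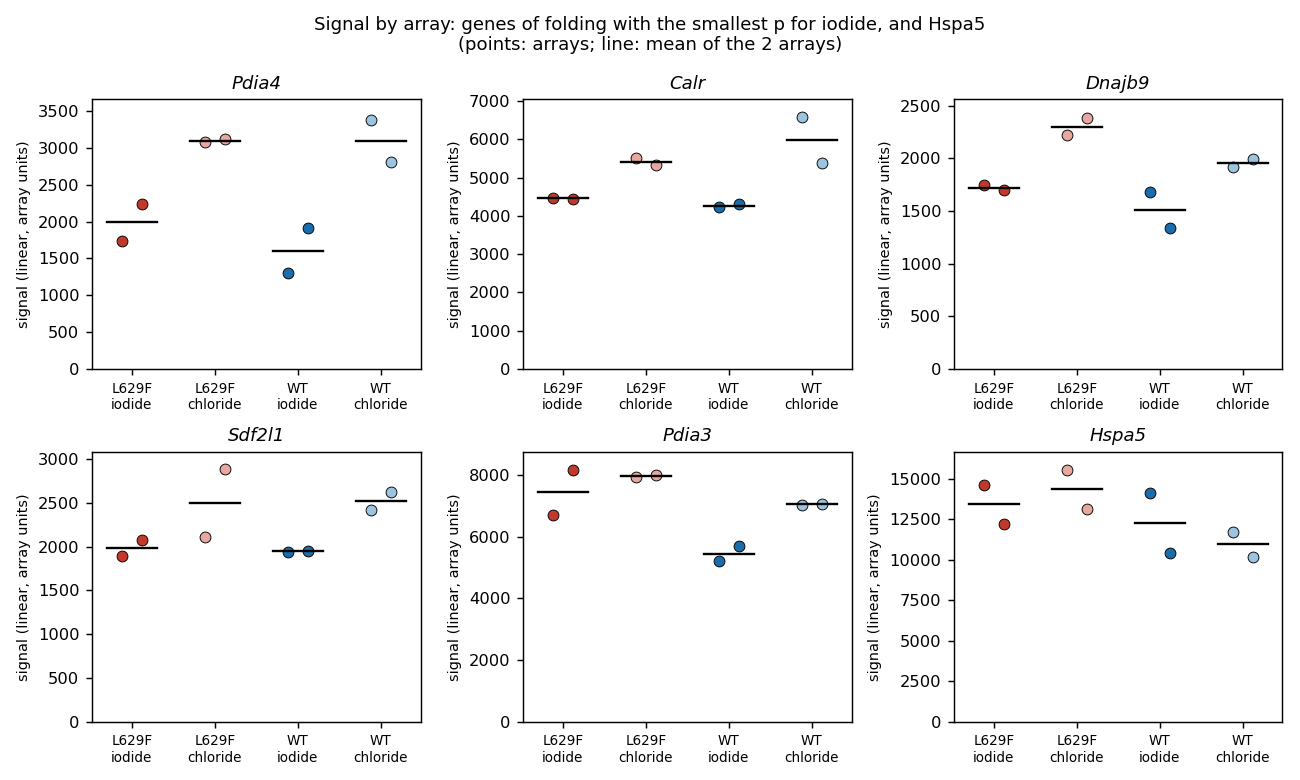
Signals on the 8 arrays (y axis, linear array units) for Pdia4, Calr, Dnajb9, Sdf2l1 and Pdia3 and, for contrast, Hspa5. Points are arrays, lines are means of the 2 arrays of a group, and iodide stands left of chloride in each line. For Pdia4, Calr, Dnajb9 and Sdf2l1 both iodide points lie below both chloride points in each line.

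Hspa5, whose product BiP is the central chaperone of the ER and the usual marker of the unfolded protein response, had an average change of 0.03 ± 0.11 (adjusted p = 0.941, 95% interval -0.21 to 0.27). Its signals were 14613 and 12217 in L629F cells given iodide, against 15562 and 13128 with chloride. The values in WT cells were 14117 and 10407 with iodide, against 11736 and 10175 with chloride. The groups overlapped in both lines. Hsp90b1, the Hsp90 of the ER, had signals of 16302 and 16696 in L629F cells given iodide, against 15786 and 14862 with chloride. WT cells gave 11584 and 13426 with iodide, against 14446 and 15842 with chloride. Iodide arrays thus lay above chloride arrays in L629F cells and below them in WT cells, with changes of 0.11 ± 0.12 and -0.28 ± 0.12 (adjusted p = 0.862 and 0.347). With quantile scaling Hsp90b1 passed in WT cells (-0.54, adjusted p = 0.006) and for the average over both lines (-0.35, adjusted p = 0.0043), and over 18 alternative settings these adjusted p ran to 0.797 and 0.89.

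Among the remaining chaperones, Canx (calnexin) had an average change of -0.14 ± 0.08, and its 3 probe sets gave -0.14, -0.16 and -0.52, all of the same sign. Creld2, Dnajb11, Dnajc3 and Manf, which ER stress induces, had average changes from -0.08 to 0.03. Hyou1, which exchanges nucleotide on BiP, was dim, with signals from 81.4 to 369 over the 8 arrays. Its average change was -0.46 ± 0.32 (adjusted p = 0.548), and its interval of -1.16 to 0.24 was the widest of the 11. A dimmer probe set of Hyou1, with a mean signal of 27.7, gave 0.07, opposite in sign.

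None of the measured genes of ER-associated degradation or of the translocon passed with iodide (limma). At an unadjusted p under 0.05 for the average over both lines there were 0 of 7 and 0 of 4, against 15.2% of all genes. In the degradation group 5 of 7 measured genes had a positive mean change, where 5240 of 10047 genes tested had one, and the median was 0.01. Vcp, the ATPase that extracts proteins from the ER membrane, had signals of 6378 and 6331 in L629F cells given iodide, against 5897 and 5994 with chloride. The corresponding WT values were 5949 and 7088 with iodide, against 5077 and 5931 with chloride. It was the only one of the 32 genes whose iodide arrays lay above the chloride arrays in both lines, and its average change was 0.17 ± 0.09 (adjusted p = 0.437). Sel1l and Syvn1, which form the ubiquitin ligase of this route, had changes of -0.07 ± 0.13 and -0.04 ± 0.15. Derl1 and Derl2, membrane proteins of the exit channel, had 0.07 ± 0.10 and 0.06 ± 0.17, and Edem1, a lectin that selects glycoproteins for degradation, had 0.00 ± 0.16. Herpud1 had an average change of 0.01 ± 0.09. Derl1 had 0.07 on its brightest probe set and -0.06 and -0.05 on its other 2. A dimmer probe set of Derl2 gave -0.12, also opposite in sign to its brightest.

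Of the 4 translocon genes, Sec61b was lower without overlap in both lines, with an average change of -0.15 ± 0.08 (adjusted p = 0.454). Its signals were 5055 and 5355 in L629F cells given iodide, against 5433 and 5601 with chloride, and 4796 and 4589.6 in WT cells given iodide, against 5544 and 5314 with chloride. Sec61a1, the channel itself, had a change of -0.01 ± 0.09. Ssr1 and Ssr3, subunits of the translocon-associated complex, had 0.09 ± 0.09 and 0.17 ± 0.11. A dimmer probe set of Ssr1 gave -0.21, opposite in sign. Dimmer probe sets of Ssr3 gave 0.14 and -0.11.

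The 4 measured sensors and regulators did not pass either (limma). At an unadjusted p under 0.05 for the average over both lines there were 0 of them, against 15.2% of all genes. Xbp1 had signals of 3384 and 3669 in L629F cells given iodide, against 3342 and 3622 with chloride. In WT cells they were 3466 and 5024 with iodide, against 3169 and 3325 with chloride, so the value in WT cells rests on the high WT iodide replicate 2, the array with the highest GAPDH ratio (3.13). The change was 0.36 ± 0.16 in WT cells (adjusted p = 0.386) and 0.02 ± 0.16 in L629F cells, and splicing of Xbp1 was not measured. Ppp1r15a, which restores translation after Perk has acted, had signals of 282 and 319 in L629F cells given iodide, against 228 and 364 with chloride. With the WT receptor they were 238 and 275 with iodide, against 473 and 381 with chloride. The changes were 0.05 ± 0.25 in L629F cells and -0.66 ± 0.25 in WT cells (adjusted p = 0.983 and 0.282). Eif2ak3 had an average change of -0.31 ± 0.17 and Atf6 one of 0.13 ± 0.13 (adjusted p = 0.417 and 0.696). The dimmer probe set of Atf6, with signals from 29.6 to 161, gave -0.57, opposite in sign.

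**Figure D3:**
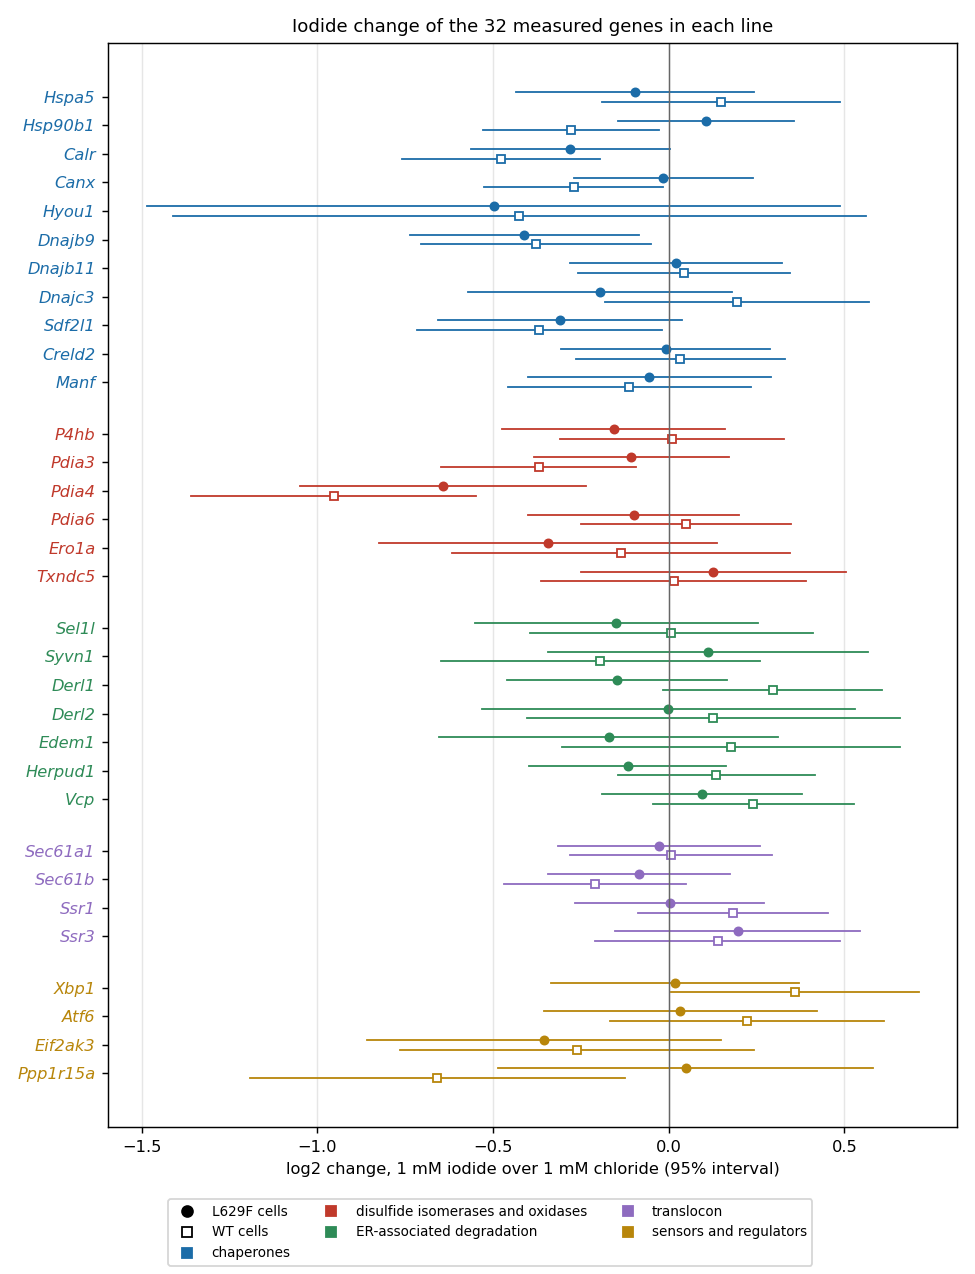
Log2 change with iodide of each of the 32 measured genes (x axis), with filled circles for L629F cells and open squares for WT cells and bars for 95% intervals. Colours give the role. Pdia4 stands furthest below 0 in both lines, and most other intervals include 0.

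Counted over arrays, 5 of the 32 genes (15.6%) had both iodide arrays below both chloride arrays in both lines, namely Pdia4, Calr, Dnajb9, Sdf2l1 and Sec61b, against 609 of 10047 genes tested (6.06%). In the other direction it was 1 of 32 (3.12%), against 821 (8.17%). Taken 1 line at a time, 12 of the 32 genes (37.5%) had both iodide arrays lower in L629F cells, against 18.5% of all genes, and 10 (31.2%, against 19.6%) in WT cells. Both iodide arrays were higher for 3 (9.38%, against 20.2%) in L629F cells and for 7 (21.9%, against 23.7%) in WT cells. For 4 (12.5%), Hsp90b1, Dnajc3, Derl1 and Herpud1, the arrays lay in opposite directions in the 2 lines, against 4.19% of all genes.

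The 32 genes had a median change of -0.03 for the average over both lines, with 19 below 0. Over all genes tested the median was 0.01, with 4807 of 10047 below 0. The medians were -0.09 in L629F cells and 0.01 in WT cells, against 0.01 and 0.02 over all genes. The median in WT cells was below 0 without WT chloride replicate 1 (-0.09), WT iodide replicate 1 (-0.07) or WT iodide replicate 2 (-0.09), with quantile scaling (-0.05) and with the GAPDH covariate (-0.08).

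At an unadjusted p under 0.05, 5 of the 32 genes (15.6%) stood out for the average over both lines, against 15.2% of all genes. These 5, Pdia4, Calr, Dnajb9, Sdf2l1 and Pdia3, were all negative, against 7.32% of all genes in that direction. Within WT cells, 46 of 10047 genes passed (0.458%), and Pdia4 was the only one among the 32. Within L629F cells 9 genes passed (0.0896%) and none of the 32 did (limma). At an unadjusted p under 0.05 there were 9 of the 32 in WT cells (28.1%, against 12.6% of all genes), with Xbp1 positive and the other 8 negative (25%, against 6.31% of all genes), and 2 of the 32 in L629F cells (6.25%, against 8.18%), Dnajb9 and Pdia4. For the difference of the iodide changes between the lines, none of 10047 genes passed (0%, limma), and 1 of the 32, Hsp90b1 (0.38 ± 0.16), had an unadjusted p under 0.05, against 418 of all genes (4.16%). The 2 comparisons within a line share no arrays in their means, but their p-values share 1 estimate of the spread from all 8 arrays. The average and the difference are built from them.

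Between the receptors, averaged over both salts, 1 of the 32 genes passed. It was Herpud1, a membrane protein with a ubiquitin-like domain that organises the ubiquitin ligase of ER-associated degradation, and it was higher in L629F cells. Its signals in L629F cells were 3416 and 3168 with iodide and 3598 and 3545 with chloride, and in WT cells 2318 and 2267 with iodide and 2103 and 2063 with chloride. The lowest L629F array lay well above the highest WT array, and within each line the 2 salts lay closer together than the lines did. The log2 difference was 0.64 ± 0.09 (95% interval 0.44 to 0.84), a ratio of 1.56, with an adjusted p of 0.00301 (limma). The call held whichever of the 8 arrays was left out (adjusted p up to 0.0232). Over all genes 318 of 10047 passed (3.17%), of which 208 were higher, so the share among the 32 genes, 3.12%, was near the background. The window of Herpud1 shown above holds an ERSE-II.

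The scale of the arrays bears on this comparison. The first quartile of all signals ran from 40.8 to 43.1 on L629F arrays and from 29.3 to 31.6 on WT arrays, and centring each array on its own median signal put the median difference of all genes at -0.17, where it was -0.00 without centring. Under that centring Herpud1 had a difference of 0.47 (adjusted p = 0.0121), and the median of the 32 genes was -0.09 where it was 0.08 without centring, so that it lay above the median of all genes in both cases. At an unadjusted p under 0.05 there were 6 of the 32 (18.8%), against 19.8% of all genes.

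Next to Herpud1, 2 genes did not overlap between the 4 L629F and the 4 WT arrays. Txndc5, an isomerase with thioredoxin-type domains, had signals in L629F cells of 2651 and 2764 with iodide and 2335 and 2626 with chloride. The WT cells had 2326 and 1700.04 with iodide and 1737 and 2233 with chloride. The lowest L629F array was only just above the highest WT array, and the difference was 0.38 ± 0.12 (adjusted p = 0.113). Txndc5 passed without WT iodide replicate 1 (0.49, adjusted p = 0.048) and with the GAPDH ratio as a covariate (0.43, adjusted p = 0.0477), and over 18 alternative settings its adjusted p ran to 0.339. Sec61a1 had signals in L629F cells of 3778 and 3562 with iodide and 3720.15 and 3761 with chloride. For WT cells the values were 4244 and 4870.07 with iodide and 4242 and 4828 with chloride. Every L629F array was lower, and the difference was -0.29 ± 0.09 (adjusted p = 0.113). The 2 dimmer probe sets of Sec61a1 gave 0.12 and 0.13, and with the mean of its probe sets the difference was -0.09 (adjusted p = 0.7). Its brightest probe set passed with centred arrays (-0.46, adjusted p = 0.0119) and with the GAPDH covariate (-0.34, adjusted p = 0.0336). With centred arrays 1230 of 10047 genes tested were called lower, against 110 without centring. In all, 2 of 32 genes were higher without overlap (6.25%, against 5.7% of all genes) and 1 was lower (3.12%, against 4.66%).

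All 6 isomerase and oxidase genes had a positive mean difference, from 0.11 for P4hb to 0.38 for Txndc5, with a median of 0.14, against -0.00 over all genes tested. Of all genes tested, 4965 of 10047 had a positive mean difference. With each array centred on its median, P4hb (-0.07), Pdia6 (-0.05), Ero1a (-0.06) and Pdia4 (-0.01) lay below 0 and above the median of -0.17 that this centring gave over all genes. Pdia3 (0.31 ± 0.09, adjusted p = 0.0856) passed with quantile scaling (adjusted p = 0.0247, and up to 0.334 over 18 alternative settings). So did Hsp90b1 (0.21 ± 0.08, adjusted p = 0.182), with an adjusted p of 0.0164 under that scaling and of up to 0.749 over the 18. Hspa5 had a difference of 0.26 ± 0.11 (adjusted p = 0.211), with the 2 lines overlapping. It passed with the GAPDH covariate (0.39, adjusted p = 0.0111), and over 18 alternative settings its adjusted p ran to 0.589. Dnajb9 and Canx had 0.21 ± 0.11 and 0.14 ± 0.08, while Calr and Sdf2l1 had -0.04 ± 0.09 and -0.00 ± 0.11. Dimmer probe sets of Canx gave 0.13 and -0.15. The other 5 chaperones, Hyou1 (0.31 ± 0.32), Creld2, Dnajc3, Dnajb11 and Manf, had differences from -0.08 to 0.31. A dimmer probe set of Hyou1 gave -0.19, opposite in sign. Sec61b, Ssr1 and Ssr3 had 0.09 ± 0.08, 0.09 ± 0.09 and 0.01 ± 0.11. A dimmer probe set of Ssr1 gave -0.20, opposite in sign, and dimmer ones of Ssr3 gave -0.09 and 0.10. Of the other degradation genes, Sel1l, Syvn1, Derl1, Derl2, Edem1 and Vcp had differences from -0.01 to 0.05. Among the sensors and regulators Atf6 had 0.17 ± 0.13, Xbp1 -0.07 ± 0.12, Ppp1r15a -0.15 ± 0.18 and Eif2ak3 -0.23 ± 0.17. The dimmer probe set of Atf6 gave -0.32, opposite in sign.

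**Figure D4:**
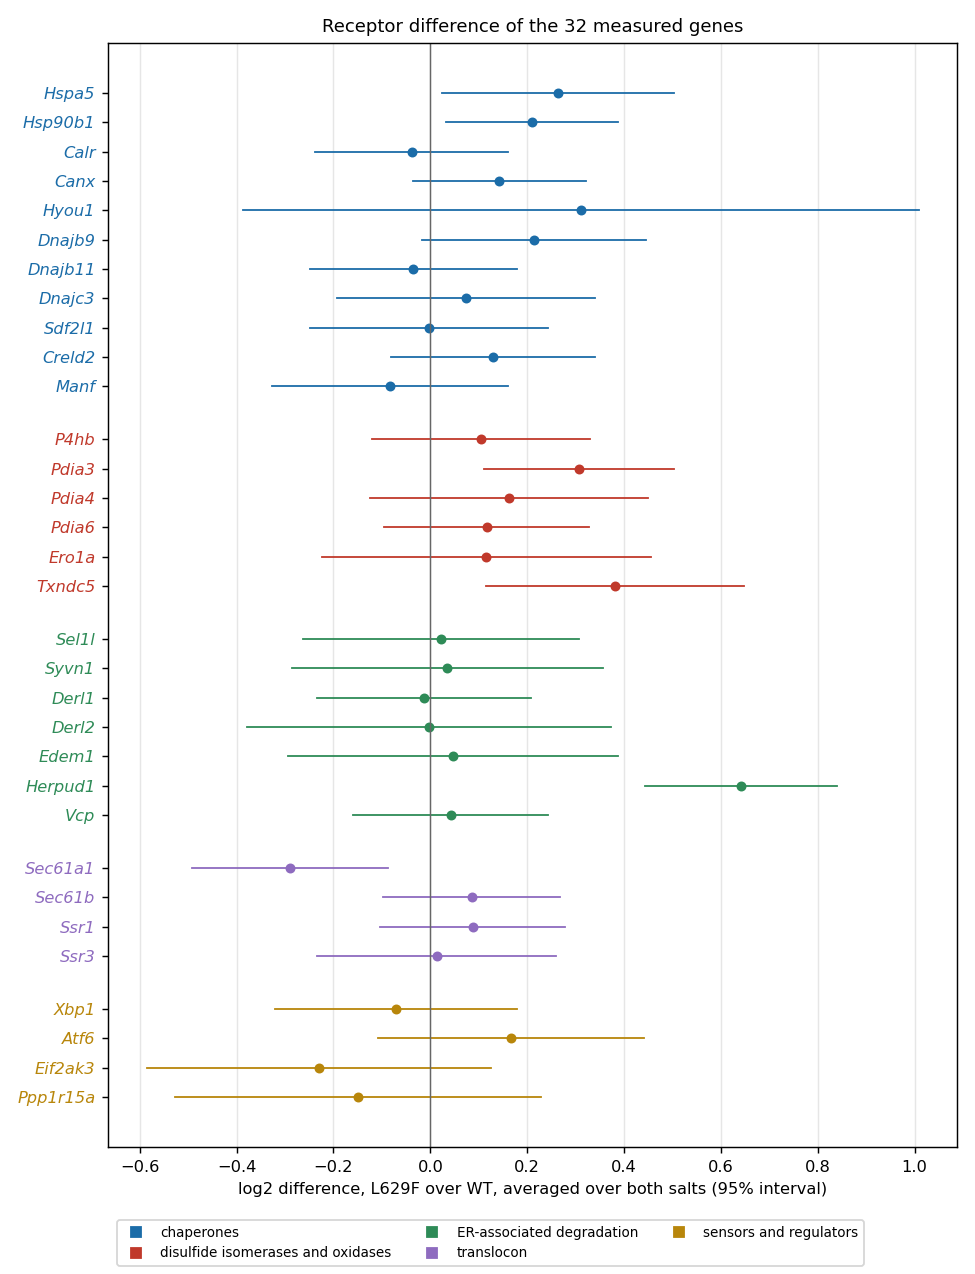
Log2 difference between L629F and WT cells, averaged over both salts, for each of the 32 measured genes (x axis, bars are 95% intervals, colours give the role). Herpud1, at 0.64, stands apart from the rest, and Sec61a1, at -0.29, is the lowest.

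Genes of the same pathways outside the 34 were taken from 5 further lists, drawn up with earlier results of these data known. With iodide, averaged over both lines, none of 31 further ER chaperones and lectins, 16 further isomerases, 29 further degradation genes or 26 further sensors and regulators passed (limma). At an unadjusted p under 0.05 there were 9, 2, 2 and 3 of them, against 15.2% of all genes. Of 32 genes of translocation, signal peptidase and oligosaccharyltransferase 1 passed. This was Sec63, the J-domain protein that brings BiP to the translocon, and it fell. Its signals were 1129 and 939 in L629F cells given iodide, against 1781 and 1658 with chloride, and 1066 and 931 in WT cells given iodide, against 1547 and 1656 with chloride. The groups did not overlap in either line, and the log2 change was -0.69 ± 0.11 (adjusted p = 0.00777). It did not pass without WT chloride replicate 1 or 2 (adjusted p = 0.0514 and 0.0593). With the mean of all its probe sets the change was -0.31 (adjusted p = 0.372), so its probe sets did not give the same size. The further chaperones and lectins had a median change of -0.15, with 20 of 31 below 0, against 4807 of 10047 genes tested. The medians of the other 4 lists lay between -0.02 and 0.03.

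Between the receptors, 4 of the 26 further sensors and regulators passed, 2 of 31 chaperones and lectins and 1 of 32 translocation genes, against 3.17% of all genes. Because the lists were drawn up with earlier results of these data known, these shares cannot be read as an excess over all genes. Nupr1, a stress-induced chromatin protein, had signals in L629F cells of 3936 and 3662 with iodide and 3979.99 and 3261 with chloride. The values in WT cells were 1396 and 1234 with iodide and 1273 and 1121 with chloride. Its difference was 1.54 ± 0.11 (adjusted p = 1.77e-05), and Chac1, which breaks down glutathione, was higher by 1.42 ± 0.12 (adjusted p = 2.5e-05). Trib3, a pseudokinase, was higher by 0.49 ± 0.11 (adjusted p = 0.036), while Atf4, a transcription factor of the Perk branch, was lower (-0.47 ± 0.10, adjusted p = 0.0234). Trib3 was named after its value was seen. Nupr1 and Chac1 passed whichever array was left out. Atf4 passed only without WT iodide replicate 1 or L629F iodide replicate 2, and Trib3 lost its call without any 1 of the 8 arrays (adjusted p up to 0.121 and 0.162). Of the other lists, Cnpy2 (-0.76 ± 0.14) and Mogs, the glucosidase that begins the trimming of glycans (-0.52 ± 0.11), were lower. Srp54a, of the signal recognition particle, was higher (0.44 ± 0.10). Cnpy2 lost its call without either WT chloride array or L629F chloride replicate 2, and Mogs without either WT chloride array, WT iodide replicate 1, L629F chloride replicate 1 or L629F iodide replicate 1 (adjusted p up to 0.0821 and 0.112). Srp54a kept its call only without WT iodide replicate 1 (adjusted p up to 0.145). None of 16 further isomerases or 29 further degradation genes passed for the receptor (limma, 4 and 3 at an unadjusted p under 0.05, against 19.8% of all genes).

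**Figure D5:**
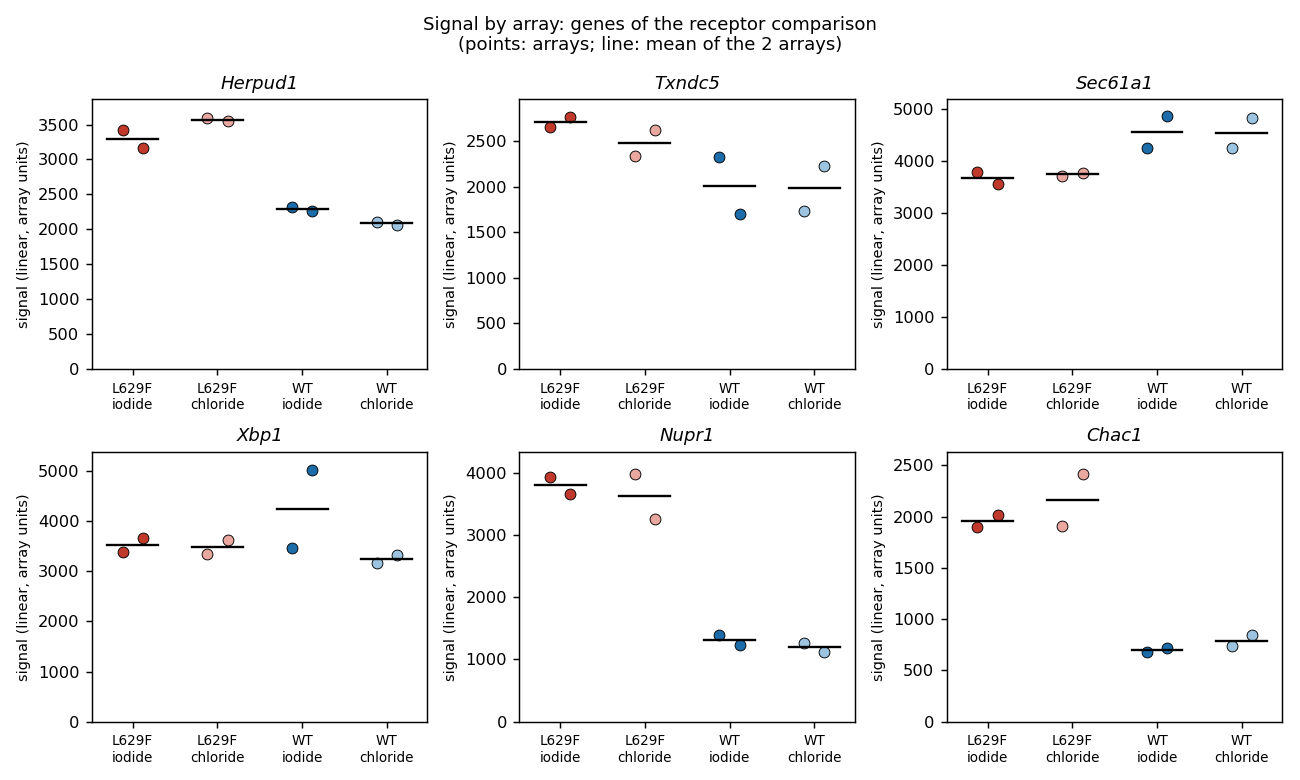
Signals on the 8 arrays (y axis, linear array units) for Herpud1, Txndc5, Sec61a1 and Xbp1 and for Nupr1 and Chac1, from the further list of regulators. Points are arrays and lines are means of the 2 arrays of a group. L629F arrays lie apart from WT arrays for Herpud1, Txndc5, Sec61a1, Nupr1 and Chac1, and not for Xbp1.

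Set beside the promoter motifs, the 11 measured genes whose window held a motif had a median iodide change, averaged over both lines, of 0.01, and the 14 whose window held none had a median of -0.07. For the receptor the medians were 0.13 with and 0.04 without a motif. Within the first set Calr had -0.38 and Hspa5 0.03 with iodide, although both windows hold an ERSE. Tg, the main cargo of this machinery, had signals of 13609 and 13929 in L629F cells given iodide, against 15811 and 16582 with chloride, and 10748 and 13846 in WT cells given iodide, against 12335 and 13477 with chloride. Its average change was -0.16 ± 0.09 (adjusted p = 0.458).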

How the data were processed

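The deposited table held a linear intensity for each of 31099 probe sets on each array. Per the submitters' processing notes the authors used MAS5, with no version or scaling target stated there. The mean of each array without its lowest and highest 2% was about 500.2, so arrays had been scaled before deposit.

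Symbols came from the platform annotation, updated through gene IDs to the GRCr8 gene table. Of the probe sets, 20832 had 1 symbol, 436 several and 9831 none. Left out were 57 control probe sets and the dimmest 40% by mean log2 value, a limit of 69.9 when converted back to signal. The brightest probe set per symbol then gave 10047 genes. Values were log2(signal + 35.3), the 25th percentile of all signals being the pseudocount, a scale that understates the change of dim genes. No further scaling was applied. The model had 1 coefficient for each of the 4 groups and was fitted in limma 3.58.1 (R 4.3.3) with lmFit and trended eBayes, with 4 residual and 9.43 prior degrees of freedom. P-values were two-sided and adjusted by Benjamini-Hochberg over the 10047 genes, with a threshold of 0.05. The arrays' number limits precision, with a median SE of 0.14 log2 for an average over both lines and 0.20 within a line. On simulated data (10 runs) the average over both lines found 28.4% of genes changed by 0.5 log2 and 74.0% of those changed by 1. It found 96.1% of those changed by 2, and 3.79% of its calls were false. These rates depend on the simulated spread and share of changed genes, and need not hold for the arrays here.

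All 34 genes are named whatever their p, and from each further list up to 3 genes past the threshold by smallest p in a comparison, with Trib3 added after its value was seen. The genes and lists were chosen with earlier results of these data known. Promoter sequences are those of RefSeq (GRCr8). Alternatives changed the pseudocount, dim filter, scaling, probe set, moderation, replicate term, a GAPDH covariate, the threshold and the arrays. Protein sequences were not used here.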

Additional observations from a re-analysis of the deposited data

Results flagged for a closer look

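In 4 of the 32 genes (12.5%, against 421 of 10047 genes tested, 4.19%) the iodide arrays lay on opposite sides of the chloride arrays in the 2 lines without overlap, and each difference was tested as the iodide change in L629F cells minus that in WT cells (limma, n = 2 arrays per group). Hsp90b1 was higher with iodide in L629F cells and lower in WT cells, a difference of 0.38 ± 0.16 (adjusted p = 0.993). Dnajc3 (-0.39 ± 0.25), Derl1 (-0.44 ± 0.21) and Herpud1 (-0.25 ± 0.18) were lower in L629F cells and higher in WT cells, each with an adjusted p of 0.993. Derl1 had signals of 2404 and 2146 in L629F cells given iodide, against 2608 and 2429.6 with chloride, and 2630.4 and 2725 in WT cells given iodide, against 1981 and 2387 with chloride. Its other 2 probe sets gave changes in WT cells of -0.08 and -0.04, where the brightest gave 0.30. None of these differences passed.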

How the results depend on the processing

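The rise of Herpud1 in L629F cells kept its sign and its call under all 18 alternatives (0.47 to 0.68). The fall of Pdia4 averaged over both lines kept its sign under all 18 (-0.97 to -0.66) and lost its call without the intensity trend (adjusted p = 0.113) and without the 2 arrays named in the report, 1 at a time. Within WT cells Pdia4 lost its call in 9 of 18. Of 157 values of the 32 genes that did not pass, 88 changed sign under some alternative.

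The number of the 32 genes past the threshold for the average iodide change was 1, and it became 2 with a dim filter of 60%, 4 with quantile scaling, 0 without the intensity trend, 3 at a threshold of 0.1, and 0 to 2 without 1 array. In WT cells it was 1, and 0 with no dim filter, with each array centred on its own median, with probe sets averaged per gene or without the intensity trend, 2 with quantile scaling, and 0 to 1 without 1 array. In L629F cells and for the difference between the lines it was 0 under all 18. For the receptor it was 1, and 2 with centring, 3 with quantile scaling, 4 with the GAPDH covariate, 2 at a threshold of 0.1, and 1 to 2 without 1 array.

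Over all genes, the average iodide change had 161 calls (52 higher, 109 lower), with centring 99 higher and 96 lower, and with quantile scaling 33 and 120. It had 92 with no dim filter, 18 without the trend, 259 with the covariate, 372 at 0.1 and 38 to 262 without 1 array. In WT cells 46 calls (8 higher, 38 lower) became 15 with no dim filter, 24 with centring (8 and 16), 0 without the trend, 195 with the covariate, 87 at 0.1 and 0 to 41 without 1 array. In L629F cells 9 calls (1 higher, 8 lower) became 4 with no dim filter, 2 with centring (1 and 1), 16 with quantile scaling, 0 without the trend, 30 with the covariate, 15 at 0.1 and 0 to 9 without 1 array. The difference between the lines had 0 calls throughout. The receptor comparison had 318 calls (208 higher, 110 lower), and 205 with no dim filter, 1376 with centring (146 and 1230), 171 without the trend, 716 with the covariate, 649 at 0.1 and 97 to 331 without 1 array. The causes of these shifts were not tested.

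The labels number the replicates alike in each group. The deviations of same-numbered arrays correlated at 0.04 to 0.23 between groups, which alone does not show whether the numbers pair them. In each group replicate 2 had the higher GAPDH and beta-actin ratios. From replicate 1 to replicate 2 the GAPDH ratio went from 1.22 to 1.55 (WT chloride) and from 1.40 to 3.13 (WT iodide). It went from 1.54 to 2.17 (L629F chloride) and from 2.27 to 2.49 (L629F iodide). Whether same-numbered arrays share a batch was not tested, and the main model has no replicate term. With the replicate block, the 32 genes had 4 calls for the average iodide change, 2 in WT cells, 0 in L629F cells and 5 for the receptor, and all genes had 521, 232, 60 and 804. The calls beyond Pdia4 and Herpud1 were Calr (adjusted p = 0.0148), Dnajb9 (0.0295) and Sdf2l1 (0.0496) for the average, Calr (0.0449) in WT cells, and Pdia3 (0.0284), Hspa5 (0.0431), Sec61a1 (0.0455) and Txndc5 (0.0489) for the receptor.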
